A study of Mus musculus with 6 samples.

Results

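Kupffer cell and macrophage marker genes were followed in RNA-seq libraries of mouse liver. The set holds 31 genes listed by symbol, each matched to its Ensembl identifier in the deposited gene table of 54600 rows, and each symbol had a single row there. Levels are in TPM, a length-corrected abundance whose sum over genes is fixed per library. Of the 31 genes, 26 reached 1 TPM in at least 3 of the 6 libraries and were tested among 11440 genes that did so. The other 5 (Ms4a7, Gpnmb, Itgax, Ccr2 and Cx3cr1) stayed below 1 TPM in every library and are given as values only.

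All 6 livers came from animals kept on high-fat food for 16 weeks. By genotype label, 3 libraries are wild type (WT) and 3 are a knockout of HIF-2α restricted to hepatocytes (KO). Epas1 encodes HIF-2α, a transcription factor subunit that accumulates when oxygen is low, and the series asks what part it plays in the course of fatty liver disease (MASLD). Every animal received the diet, so no chow-fed liver is compared, and none of the sources used here gives the strain, age, sex or the promoter that restricts the deletion. By its label the deletion concerns hepatocytes, so macrophages in these livers would carry an intact gene. The labels number the libraries 1 to 3 within each genotype without saying that each is a separate animal, so p-values measure only the spread between these samples, which may be technical.

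Kupffer cells are the macrophages that live in the liver sinusoids, where they clear particles, lipoproteins, bacteria and worn red cells from portal blood. The lectin Clec4f, the complement receptor Vsig4, the phosphatidylserine receptor Timd4, the scavenger receptor Marco and the secreted protein Cd5l mark these resident cells. When resident cells are lost in fatty liver, monocytes that depend on the chemokine receptor Ccr2 enter and can become macrophages that express Trem2, Gpnmb, Cd9, Itgax and Spp1 and take up lipid. Macrophage genes are commonly switched on through PU.1, an ETS-family transcription factor encoded by Spi1.

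Promoter windows of 3 genes show the letters that lie upstream of genes whose values carry the results. C1qb and Vsig4 are shown because both had their lowest level in WT-labelled library 3, which held for 20 of the 26 tested genes. Spp1 is shown because it had the smallest p-value of the set. These 3 were picked after the values were seen. All 3 hold the sequence marked below, which the windows of other genes low in that library, such as Fcer1g, Lyz2 and Folr2, do not. They therefore do not stand for the set. Each run is the 250 bases before the RefSeq start of the gene on build GRCm38.p6, written 5′ to 3′ on the strand of the gene, with capitals marking GAGGAA, an ETS-type sequence that PU.1 is known to bind. The windows lie on the minus strand at chr4:136886201-136886450 for C1qb and chrX:96293439-96293688 for Vsig4, and on the plus strand at chr5:104434861-104435110 for Spp1.
C1qb: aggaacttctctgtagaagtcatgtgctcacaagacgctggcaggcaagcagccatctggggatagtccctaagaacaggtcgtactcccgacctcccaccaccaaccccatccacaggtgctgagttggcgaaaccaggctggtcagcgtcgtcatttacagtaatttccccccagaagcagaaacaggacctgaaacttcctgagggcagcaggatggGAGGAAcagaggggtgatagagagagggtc
Vsig4: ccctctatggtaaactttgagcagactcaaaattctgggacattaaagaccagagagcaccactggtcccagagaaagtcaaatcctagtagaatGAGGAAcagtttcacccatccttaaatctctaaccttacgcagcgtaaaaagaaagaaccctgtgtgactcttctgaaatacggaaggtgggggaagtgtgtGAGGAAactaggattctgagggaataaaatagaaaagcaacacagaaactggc
Spp1: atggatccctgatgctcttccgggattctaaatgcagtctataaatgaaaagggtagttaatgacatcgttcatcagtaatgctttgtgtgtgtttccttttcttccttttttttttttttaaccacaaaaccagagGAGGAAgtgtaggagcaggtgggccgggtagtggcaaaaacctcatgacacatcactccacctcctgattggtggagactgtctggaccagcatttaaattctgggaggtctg
The match begins 30 bases before the start in C1qb, 155 and 53 bases before it in Vsig4, and 113 bases before it in the upstream of the 2 RefSeq starts of Spp1.

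Over windows from 250 bases before to 50 bases after each RefSeq start, searched for GAGGAA on both strands, 15 of the 32 windows of the marker genes held a match (46.9%), against 28.3% of all 32851 windows in the table. These windows belong to 26 of the 31 genes, 13 of which had a match in at least one window. C1qc held one on the opposite strand, 193 bases before its start, whereas the windows of Clec4f and Timd4 held none. A match is a run of letters and says nothing of whether a factor is bound there.

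The targeted gene did not go with the labels: Epas1 was at 23.8, 26.04 and 21.01 TPM in the WT-labelled libraries and, in no case lower, at 26.6, 35.1 and 29.4 TPM in the KO-labelled ones. Which exons were deleted is not stated in the labels, and sinusoidal endothelium also expresses Epas1. Every direction below is therefore between labels. Hepatocyte genes dominated all libraries, with Alb between 28784 and 48972 TPM. TPM holds no read totals, so the depth behind each value is unknown. WT-labelled library 3 stood apart in scale. It had the lowest value of the 6 libraries in 41.6% of all tested genes, and its median-ratio factor, the median over genes of its level against the mean of all libraries, was 0.879 against 0.98 to 1.083 in the other 5. Differences that turn or shrink most without it are given both ways.

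No marker gene passed the test of KO against WT labels. Of 26 tested genes, 0 had a limma adjusted p below 0.05, the smallest being 0.993, against 1 of 11440 genes overall (0.00874%). Before adjustment 1 of the 26 had a limma p below 0.05, against 3.15% of all tested genes, and no alternative fit called any of them. Differences were small and mostly above 0: 24 of 26 genes (92.3%) had a positive KO minus WT difference, with a median of +0.16 on the log2(TPM + 1) scale, beside 74.5% and +0.09 for all tested genes. Without WT-labelled library 3 the positive count fell to 11 of 26 (42.3%, against 59.3% of all genes) and the median turned to -0.01. With median-ratio scaling of the libraries, 20 of 26 were positive (76.9%, against 49.6%) and the median was +0.05.

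**Figure D1:**
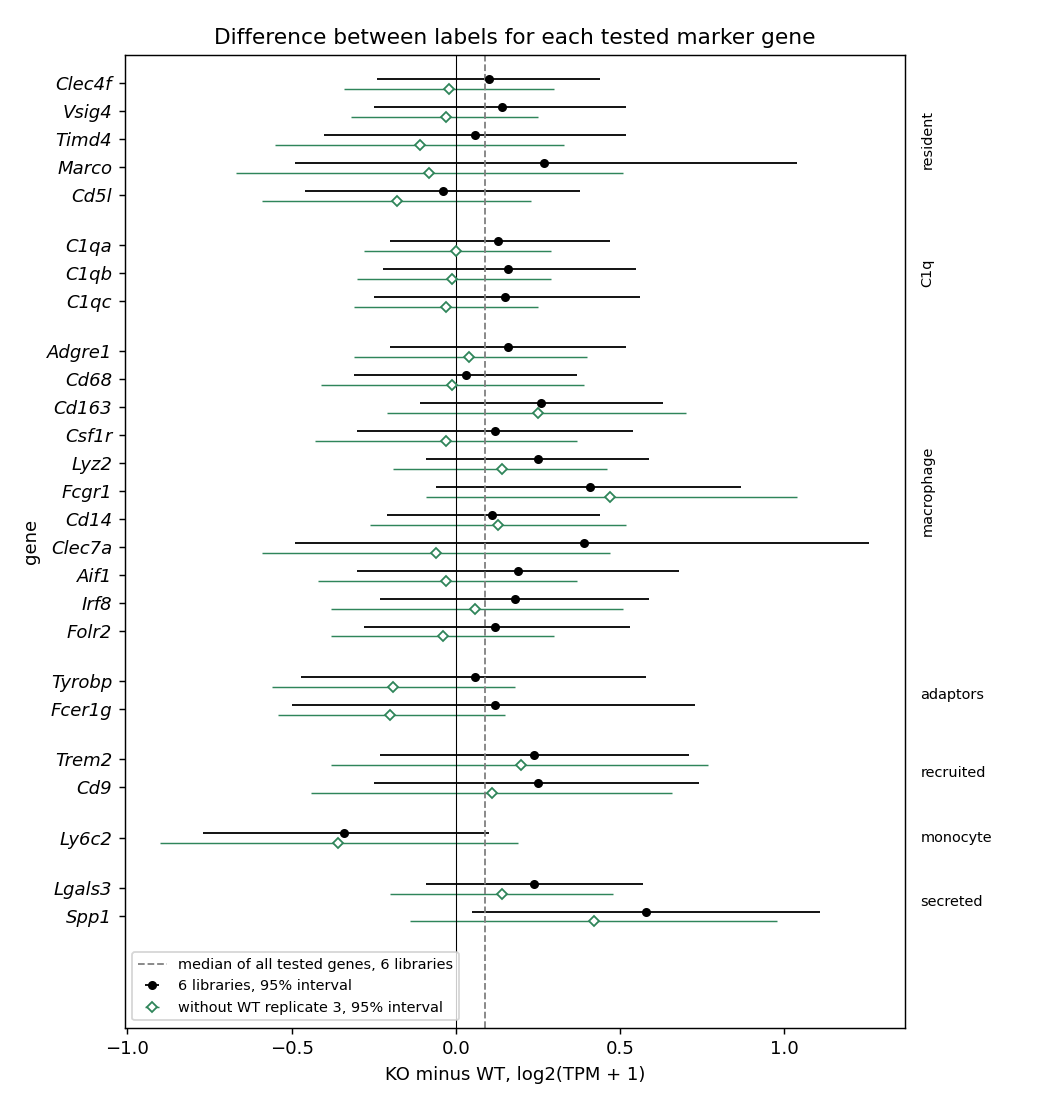
KO minus WT difference in log2(TPM + 1) for the 26 tested marker genes, grouped by role; black points use all 6 libraries, open green diamonds leave out WT-labelled library 3, bars are limma 95% intervals, and the dashed line is the median of all tested genes (+0.09). Only Spp1 has a 6-library interval that leaves out 0 (+0.05 to +1.11), and most diamonds lie to the left of their black points.

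The 95% intervals bound these differences gene by gene, without adjustment for the number of genes. For 23 of 26 genes the interval lay inside -1 to +1 on the log2(TPM + 1) scale, and the exceptions were Marco, Clec7a and Spp1. In bulk liver RNA, a change in the number of macrophages cannot be told apart from a change in RNA per macrophage.

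Resident Kupffer cell markers differed little between labels. The median difference of the 5 genes was +0.10, and it was -0.01 with median-ratio scaling and -0.08 without WT-labelled library 3. Clec4f (chromosome 6, 83644542 to 83656187, minus strand, mm10), a lectin made by Kupffer cells, was at 68.0, 60.3 and 49.6 TPM in the WT-labelled libraries and at 66.0, 58.7 and 65.0 TPM in the KO-labelled ones. Its lowest value was in WT-labelled library 3 and the groups overlapped. The difference was +0.10 (standard error 0.15, 95% interval -0.24 to +0.44, limma adjusted p = 0.993), and -0.02 without WT-labelled library 3.

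Vsig4 (chromosome X, 96247203 to 96293438, minus strand), the receptor that captures complement-coated particles, was at 32.9, 35.3 and 23.5 TPM against 32.3, 33.7 and 33.7 TPM. The KO-labelled libraries were nearly equal, and the spread lay in the WT label, where library 3 was at 69.1% of the mean of the other two. Cd5l (chromosome 3, 87357881 to 87371073, plus strand), a secreted inhibitor of apoptosis, was the most abundant marker at a mean of 66.6 TPM and one of the 2 tested genes with a difference below 0. It was at 77.9, 69.9 and 54.9 TPM in the WT-labelled libraries and at 75.5, 65.9 and 55.1 TPM in the KO-labelled ones, a difference of -0.04 (95% interval -0.46 to +0.38), and of -0.18 without WT-labelled library 3. Both labels spanned almost the same range, so Cd5l did not separate them.

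Timd4, which binds phosphatidylserine on dying cells, was lower in level, at 5.15, 5.18 and 3.34 TPM against 4.72, 5.71 and 3.84 TPM. Marco, a scavenger receptor for bacteria and particles, varied most of the resident markers, at 6.76, 3.75 and 1.93 TPM in the WT-labelled libraries and 5.44, 4.19 and 4.68 TPM in the KO-labelled ones. Its highest and lowest values both fell in the WT label and differed 3.50-fold, beside a wide interval for the label difference (-0.49 to +1.04). That difference was +0.27 with all libraries and -0.08 without WT-labelled library 3.

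**Figure D2:**
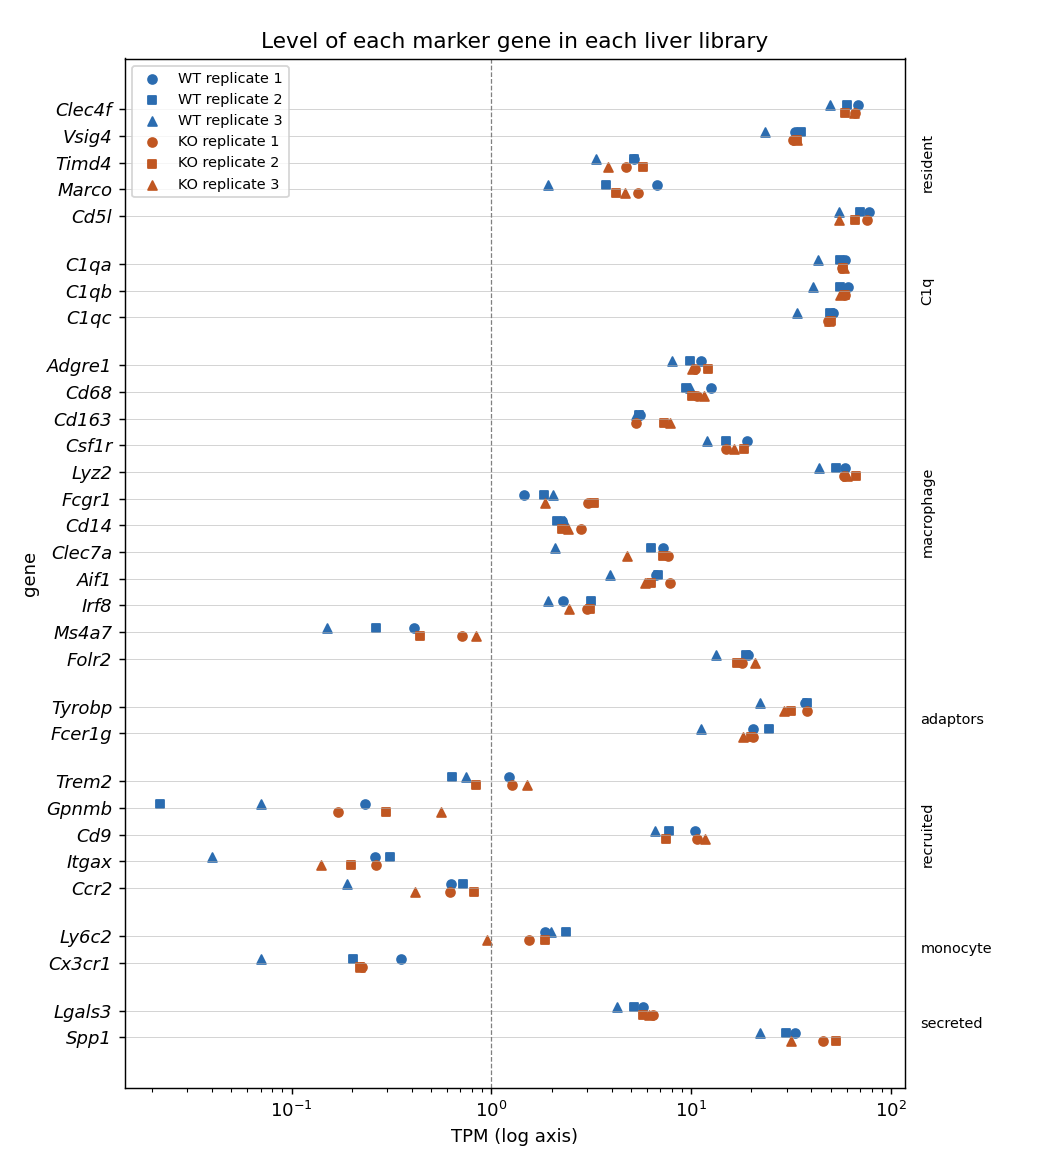
TPM on a log axis of all 31 marker genes in each library, with blue for the WT label, orange for the KO label and a symbol shape for the replicate number; the dashed line is 1 TPM. Cd5l, Clec4f, Lyz2 and the C1q genes lie highest, and the blue triangle of WT-labelled library 3 is the leftmost symbol for 24 of the 31 genes.

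The 3 genes of complement C1q, whose chains assemble into 1 molecule and which macrophages make in bulk, kept close ratios to each other. They lie within 1 stretch of chromosome 4 on the minus strand, with C1qb at 136880129 to 136886187, C1qc at 136889804 to 136893065 and C1qa at 136895917 to 136898803. C1qa was at 59.2, 55.4 and 43.2 TPM in the WT-labelled libraries and 56.6, 57.2 and 58.3 TPM in the KO-labelled ones. C1qb was at 61.1, 55.3 and 40.6 TPM against 59.1, 59.1 and 55.6 TPM. C1qc was at 51.1, 49.5 and 33.9 TPM against 48.6, 49.96 and 49.0 TPM.

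All 3 chains had their lowest level in WT-labelled library 3. For C1qa and C1qb all KO-labelled values lay between those of the other two WT-labelled libraries, while for C1qc KO-labelled libraries 1 and 3 lay just below both. The level of C1qb relative to C1qa ran from 0.940 to 1.045 over the 6 libraries, and that of C1qc relative to C1qa from 0.784 to 0.892, with both minima in WT-labelled library 3. Label differences were +0.13, +0.16 and +0.15 for C1qa, C1qb and C1qc, and without that library they were at 0.00, -0.01 and -0.03.

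Among general macrophage genes, 11 of 12 were tested and all 11 had a difference above 0, with a median of +0.18 that fell to +0.04 without WT-labelled library 3 and none past the threshold. With median-ratio scaling 1 of the 11, Cd68, turned below 0 (-0.07). Lyz2, the lysozyme of myeloid cells, was at 59.2, 52.9 and 43.7 TPM in the WT-labelled libraries and 58.0, 66.6 and 60.4 TPM in the KO-labelled ones. The groups overlapped through WT-labelled library 1, and the difference was +0.25 (95% interval -0.09 to +0.59), or +0.14 without WT-labelled library 3. Lyz1, its close paralog, was at no more than 0.094 TPM in any library.

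Csf1r, the receptor for the growth factors on which macrophages depend, was at 19.0, 14.97 and 12.05 TPM against 14.86, 18.3 and 16.4 TPM. Adgre1, which encodes the F4/80 antigen, was at 11.2, 9.83 and 7.97 TPM against 10.4, 12.1 and 10.1 TPM. Folr2, a folate receptor of tissue-resident macrophages, was at 19.3, 18.8 and 13.3 TPM against 17.9, 16.9 and 20.9 TPM. These 3 genes shared a low value in WT-labelled library 3 and overlapped between labels. Csf1r overlaps Hmgxb3 on the opposite strand, which was at a mean of 3.25 TPM, and none of the sources used here gives the strand setting of the counting.

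Cd68, a lysosomal glycoprotein used as a pan-macrophage marker, did not share that low value, at 12.5, 9.38 and 9.90 TPM against 10.7, 10.04 and 11.6 TPM. Its difference was +0.03 (95% interval -0.31 to +0.37), or -0.01 without that library. Cd163, the receptor that clears haemoglobin bound to haptoglobin, was nearly constant in the WT label at 5.54, 5.46 and 5.29 TPM and reached 7.29 and 7.81 TPM in KO-labelled libraries 2 and 3, with 5.27 TPM in KO-labelled library 1. The difference of +0.26 was almost the same without WT-labelled library 3 (+0.25), and neither fit called it.

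Fcgr1, the high-affinity receptor for IgG, was at 1.45, 1.84 and 2.03 TPM in the WT-labelled libraries and at 3.04, 3.27 and 1.85 TPM in the KO-labelled ones. It had the second smallest p of the set, and its difference of +0.41 (95% interval -0.06 to +0.87, limma adjusted p = 0.993) stood at +0.47 without WT-labelled library 3. Clec7a, the receptor dectin-1 for fungal β-glucan, was at 7.26, 6.27 and 2.08 TPM against 7.70, 7.25 and 4.75 TPM. Library 3 was the lowest of its label in both groups, and the difference of +0.39 went to -0.06 without WT-labelled library 3.

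Aif1, a cytoskeletal protein also called IBA1, was at 3.94 to 6.84 TPM in the WT label and 5.84 to 7.82 TPM in the KO label. Irf8, a transcription factor of the monocyte lineage, ran from 1.92 to 3.14 TPM and from 2.45 to 3.13 TPM. Gm20388, an annotated gene on the same strand that overlaps it, was listed at 0 in WT-labelled library 1 and between 4.002 and 5.32 TPM in the other 5, so the split of reads between them is uncertain. Cd14, a co-receptor for endotoxin, lay between 2.12 and 2.82 TPM in all libraries. Ms4a7 was below 1 TPM, at 0.412, 0.264 and 0.151 TPM against 0.716, 0.440 and 0.839 TPM, with no overlap between labels (exact two-sided permutation p = 0.10, the smallest that 3 libraries against 3 allow).

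Tyrobp and Fcer1g, the membrane adaptors through which Trem2, Fc receptors and related receptors signal, were among the genes with the deepest drop in WT-labelled library 3. Tyrobp was at 37.1, 38.03 and 22.03 TPM in the WT-labelled libraries and at 38.001, 31.7 and 29.1 TPM in the KO-labelled ones. Fcer1g was at 20.4, 24.7 and 11.2 TPM against 20.3, 19.8 and 18.2 TPM. WT-labelled library 3 stood at 58.7% and 49.8% of the mean of the other two libraries of its label. Without it, the differences of +0.06 and +0.12 turned to -0.19 and -0.20 (limma 95% intervals -0.56 to +0.18 and -0.54 to +0.15).

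Recruited macrophage markers were low, and 3 of the 5 were below 1 TPM throughout. Trem2, the lipid-sensing receptor of lipid-associated macrophages, was at 1.23, 0.636 and 0.744 TPM in the WT-labelled libraries and at 1.27, 0.839 and 1.504 TPM in the KO-labelled ones, a difference of +0.24 (95% interval -0.23 to +0.71). Cd9, a tetraspanin that many liver cell types express, was at 10.4, 7.77 and 6.60 TPM against 10.7, 7.52 and 11.8 TPM. Both overlapped between labels.

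Gpnmb, a transmembrane glycoprotein of lipid-laden macrophages, was at 0.234, 0.022 and 0.070 TPM against 0.170, 0.298 and 0.559 TPM. Itgax, the integrin subunit CD11c, was at 0.262, 0.310 and 0.040 TPM against 0.263, 0.198 and 0.14 TPM. Ccr2, the receptor that brings monocytes into tissue, was at 0.631, 0.723 and 0.189 TPM against 0.617, 0.819 and 0.413 TPM. At these levels, with read depth unknown, the order of the libraries carries little weight.

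The comparison of resident with recruited markers used the mean log2(TPM + 1) of 5 genes each, as a description without a test. Resident markers were at 4.61, 4.43 and 3.95 in the WT-labelled libraries and 4.52, 4.44 and 4.35 in the KO-labelled ones, so the label means were 4.33 ± 0.34 and 4.44 ± 0.08 (SD, n = 3 each). Recruited markers were at 1.20, 1.01 and 0.83 against 1.20, 1.09 and 1.27, with means of 1.01 ± 0.19 and 1.19 ± 0.09. The gap of recruited minus resident was -3.32 ± 0.17 and -3.25 ± 0.14, a shift of +0.07 that is smaller than either SD. Over all tested genes, deviations of same-numbered libraries from the label means were correlated at 0.16, 0.41 and 0.38. That is a possible pairing taken from these data, which the labels do not state. Between same-numbered libraries the gap was higher in the KO label in 3 of 3 pairs, by 0.09, 0.07 and 0.04. WT-labelled library 3 had the lowest mean of both sets and, with -3.12, a gap close to that of KO-labelled library 3 (-3.09). Without it the resident difference went from +0.11 to -0.08, the recruited difference from +0.17 to +0.08 and the shift of the gap from +0.07 to +0.16.

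**Figure D3:**
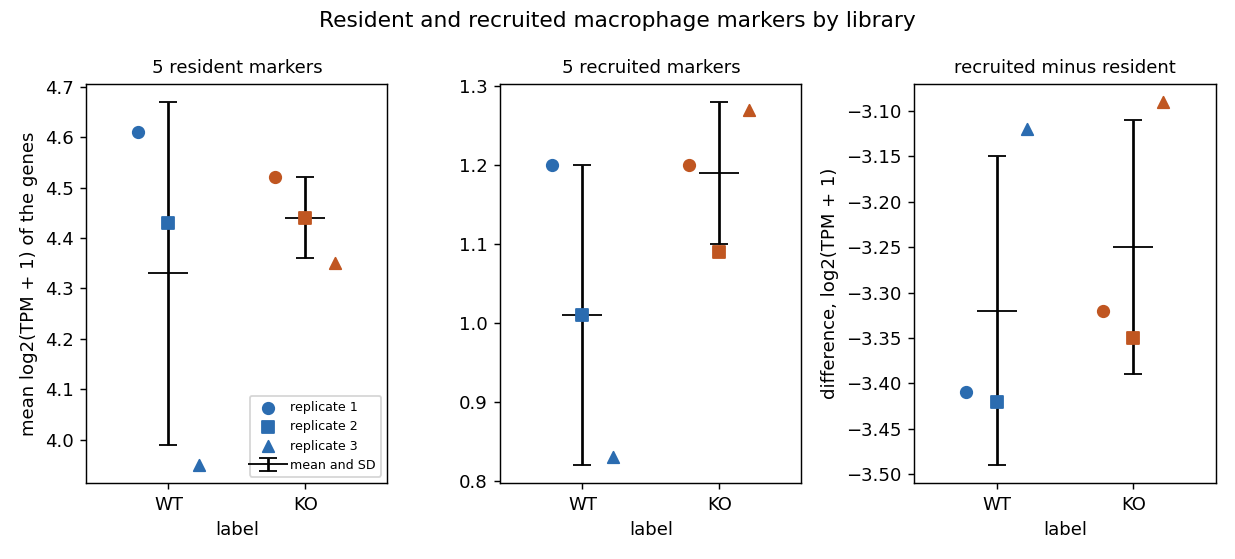
Mean log2(TPM + 1) of the 5 resident and the 5 recruited markers in each library and the difference between the sets, with the bar and whiskers giving the mean and SD of 3 libraries per label. WT-labelled library 3 is lowest for both sets (3.95 and 0.83), and each axis has its own range.

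Monocyte markers were low as well. Ly6c2, a surface antigen of inflammatory monocytes, was the second tested gene below 0, at 1.86, 2.35 and 1.98 TPM in the WT-labelled libraries and 1.55, 1.84 and 0.947 TPM in the KO-labelled ones. Its labels did not overlap, by a margin of 1.86 against 1.84 TPM, and the difference was -0.34 (95% interval -0.77 to +0.10, limma adjusted p = 0.993). Its close paralog Ly6c1, at 0.214 to 1.30 TPM, may share reads with it, so the value is uncertain. Cx3cr1, the fractalkine receptor, stayed between 0.070 and 0.351 TPM and overlaps more abundant genes, among them Gorasp1 at a mean of 10.1 TPM.

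The secreted proteins held the largest difference of the set. Spp1 (chromosome 5, 104435118 to 104441050, plus strand), which encodes osteopontin and is also expressed by bile duct cells, was at 33.2, 29.9 and 22.1 TPM in the WT-labelled libraries and at 45.6, 52.8 and 31.7 TPM in the KO-labelled ones. KO-labelled libraries 1 and 2 lay above all WT-labelled ones, while KO-labelled library 3 fell below WT-labelled library 1. The means were 28.4 ± 5.69 and 43.4 ± 10.7 TPM (SD, n = 3 per label). On the log2(TPM + 1) scale the difference was +0.58 (standard error 0.23, 95% interval +0.05 to +1.11, limma adjusted p = 0.993). Exact permutation of the labels gave a two-sided p of 0.20, and leaving out WT-labelled library 3 brought the difference to +0.42 (95% interval -0.14 to +0.98).

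Bile duct markers were measured beside Spp1: of 7 cholangiocyte genes 2 were tested, and their summed level was 6.97 to 7.22 TPM in the WT label and 6.94 to 9.72 TPM in the KO label. Epcam, a defining marker, was at 0.856, 0.508 and 0.752 TPM against 0.905, 1.56 and 1.27 TPM. Their part in the Spp1 difference was not tested. Lgals3, the lectin galectin-3, was at 5.72, 5.19 and 4.23 TPM against 6.45, 5.73 and 6.16 TPM. Its labels did not overlap, with a margin of 5.72 against 5.73 TPM, and the difference was +0.24 (95% interval -0.09 to +0.57), or +0.14 without WT-labelled library 3.

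The labels were separate in 2 of 26 tested marker genes, beside 9.08% of all tested genes. Among tested marker genes 1 of 26 lay wholly higher in the KO label (Lgals3, 3.85%, against 8.23% of all tested genes) and 1 of 26 wholly lower (Ly6c2, 3.85%, against 0.857%). Adding the untested genes brings these counts to 2 and 1 of 31 through Ms4a7. With counts this small no reading of the shares was made.

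What the set shared most was its low level in WT-labelled library 3. That library was the lowest of the 6 for 24 of 31 genes, and for 20 of the 26 tested ones (76.9%), against 41.6% of all tested genes, whereas the other 5 libraries were the lowest for 0 to 3 tested marker genes each. It was below the mean of the 6 libraries for 25 of 26 tested genes, the exception being Ly6c2. Relative to the mean of WT-labelled libraries 1 and 2, tested marker genes in library 3 had a median of 71.8%, ranging from 30.7% for Clec7a to 123.3% for Fcgr1, beside a median of 86.7% over 11339 tested genes with values above 0 in all 3.

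The marker genes remained low in that library beyond its general offset. With median-ratio scaling, which removes the offset, WT-labelled library 3 was still the lowest for 17 of 26 tested marker genes (65.4%, against 15.1% of all tested genes), and the median relative to libraries 1 and 2 was 82.6%, beside 99.4% for all genes. These counts describe 1 library and carry no test.

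**Figure D4:**
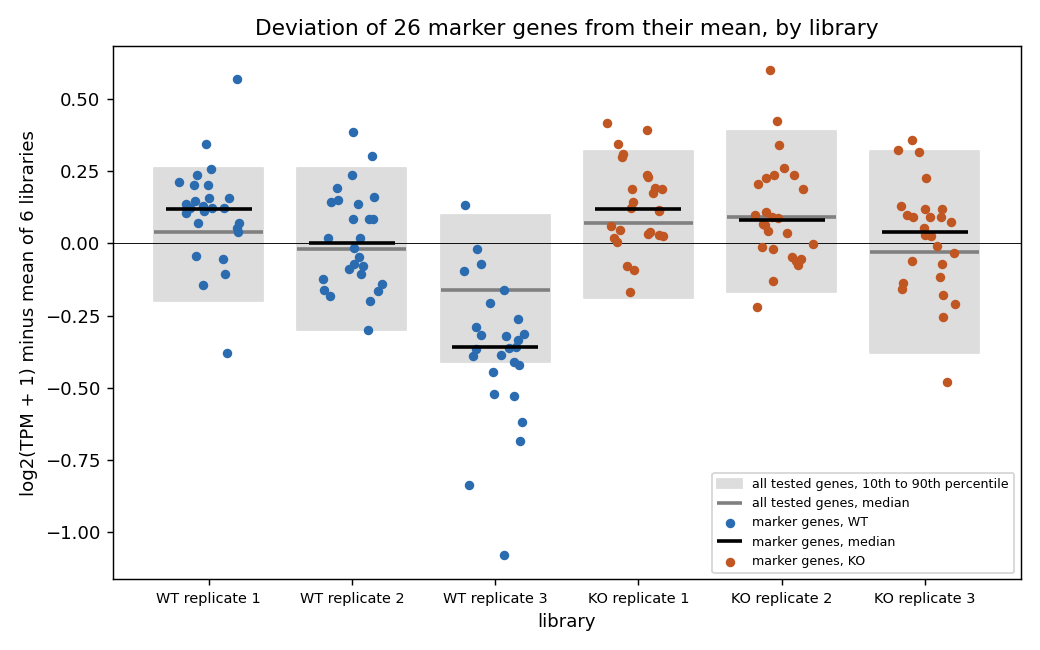
Deviation of each of the 26 tested marker genes from its own mean over the 6 libraries, in log2(TPM + 1), by library; black lines are medians of the marker genes, grey lines medians of all tested genes and grey boxes their 10th to 90th percentile. In WT-labelled library 3 the median of the marker genes is -0.36 and that of all tested genes -0.16, while in the other libraries the medians of the marker genes lie between 0.00 and +0.12.

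Genes that act around these markers were followed in 5 lists, and none passed the threshold. Of 15 growth factor, receptor and identity genes, all tested, 12 were above 0 with a median of +0.11 (+0.09 for all genes) that turned to -0.01 without WT-labelled library 3. Spi1, which encodes PU.1, was at 4.95, 4.27 and 2.50 TPM in the WT-labelled libraries and 6.08, 7.87 and 4.41 TPM in the KO-labelled ones (+0.54, 95% interval -0.05 to +1.14). WT-labelled library 3 was again the lowest, and without it the difference was +0.32 (95% interval -0.25 to +0.89). Csf2rb, a shared cytokine receptor subunit, was at 5.003 TPM in KO-labelled library 1 and between 1.41 and 1.67 TPM elsewhere, and Irf5, a factor of inflammatory macrophages, was at 14.1 TPM in KO-labelled library 3 and between 3.94 and 7.35 TPM elsewhere.

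Of 18 phagocytic and scavenger receptor genes, 17 were tested and 14 were above 0, with a median of +0.08 that turned to -0.01 without WT-labelled library 3. Stab1, a scavenger receptor shared with sinusoidal endothelium, did not overlap between labels, at 5.52, 5.76 and 6.03 TPM against 7.08, 7.93 and 7.24 TPM (+0.31, 95% interval +0.04 to +0.59, limma adjusted p = 0.993). Msr1, the class A scavenger receptor that takes up modified lipoprotein, went the other way, at 11.2, 9.24 and 7.19 TPM against 8.08, 6.04 and 6.76 TPM. Its difference was -0.35 (95% interval -0.77 to +0.08), and -0.50 without WT-labelled library 3 (95% interval -0.91 to -0.08, limma adjusted p = 0.999). With median-ratio scaling Msr1 was at -0.44 and Stab1 at +0.22, and neither gene was called. Abca1, a cholesterol exporter that hepatocytes also express, was at 17.9 to 20.9 TPM and 20.006 to 28.4 TPM.

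Of 15 further genes of lipid-associated macrophages, 12 were tested and 10 were above 0, with a median of +0.12, or -0.03 without that library. Many of them, such as Apoe, are abundant in hepatocytes. Fabp5, a fatty acid binding protein, ranged widely within both labels, at 4.58, 19.7 and 13.4 TPM against 7.31, 58.8 and 39.0 TPM. It was higher in the KO label in each same-numbered pair, with a difference of +1.19 whose 95% interval was -0.61 to +2.99 without pairing and +0.67 to +1.72 with the replicate number as a block (limma adjusted p = 0.724). Fabp4 lay between 10.1 and 13.2 TPM in the WT label and between 13.4 and 18.5 TPM in the KO label, and Cd63 between 3.19 and 4.44 TPM and between 4.28 and 5.59 TPM.

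Of 18 immune receptor signalling genes, 16 were tested and 11 were above 0, with a median of +0.05 that turned to -0.05 without WT-labelled library 3, and all but 2 of the 18 had their lowest value in WT-labelled library 3. Pilra, a paired inhibitory receptor of myeloid cells, was at 2.41, 2.64 and 1.10 TPM against 2.76, 3.92 and 3.54 TPM (+0.56, 95% interval +0.01 to +1.12, limma adjusted p = 0.993), and without WT-labelled library 3 the difference was +0.31 (95% interval -0.12 to +0.75). Inpp5d, the lipid phosphatase SHIP1, was at 0.985 to 1.09 TPM and 1.24 to 1.59 TPM, and Sirpa, the receptor for the signal CD47, at 4.84 to 7.77 TPM and 6.22 to 9.17 TPM. Of 16 inflammatory genes only 8 were tested, of which 6 were above 0, with a median of +0.11, or -0.04 without that library. Tlr2, a receptor for bacterial lipoproteins, was at 1.30, 0.853 and 0.515 TPM against 0.913, 1.13 and 1.39 TPM, with WT-labelled library 3 the lowest and the labels overlapping, and Tnf did not exceed 0.239 TPM in any library.

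Few genes of other immune cells passed the filter. Tested were 2 of 9 neutrophil, 1 of 8 dendritic, 0 of 9 T and NK, and 2 of 7 B and plasma cell genes. Summed over 9 neutrophil genes the level was 11.9, 4.27 and 2.81 TPM in the WT-labelled libraries and 7.72, 6.93 and 7.10 TPM in the KO-labelled ones, and the defining gene Ly6g was listed at 0 in all libraries but WT-labelled library 1. The 9 T and NK cell genes summed to at most 3.89 TPM and the 8 dendritic cell genes to at most 6.14 TPM. B and plasma cell genes summed to 8.06, 18.8 and 4.10 TPM against 8.61, 21.3 and 2.97 TPM, led by Ighm.

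Summed levels of other liver cells were set beside those of the macrophage set. The 31 macrophage genes summed to 620, 576 and 425 TPM in the WT-labelled libraries and 616, 610 and 572 TPM in the KO-labelled ones. Sinusoidal endothelial genes summed to 116, 119 and 109.7 TPM against 121, 132 and 113.5 TPM, and stellate cell genes to 169.6, 162.6 and 139.8 TPM against 167, 193 and 174 TPM. All 8 tested stellate cell genes had a difference above 0, with a median of +0.17, beside 74.5% and +0.09 for all tested genes. With median-ratio scaling the stellate median was +0.08, and no stellate cell gene passed the threshold. Of 9 endothelial genes 8 were above 0, with a median of +0.09. Clec4g, an endothelial lectin, was at 48.9, 53.8 and 51.0 TPM in the WT-labelled libraries, so WT-labelled library 3 was not low for it. Oit3, the next most abundant endothelial gene, was at 14.3, 12.5 and 11.4 TPM, with its lowest value in that library. WT-labelled library 3 was the lowest of the 6 for 6 of 9 stellate and 4 of 9 endothelial genes, against 41.6% of all tested genes. It was also the lowest for 5 of 9 T and NK, 4 of 8 dendritic, 3 of 9 neutrophil and 3 of 7 B and plasma cell genes, most of them untested. For hepatocyte genes it was the lowest in 3 of 8, for cholangiocyte genes in 0 of 7 and for red cell genes in 0 of 5. Red cell genes were at 634, 781 and 1048 TPM against 798, 1830 and 913 TPM, with WT-labelled library 3 the highest of its label. The part of blood or of cell composition in the low macrophage level of that library was not tested.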

How the data were processed

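Liver RNA-seq of 6 libraries (3 labelled WT, 3 labelled KO) was used. The authors deposited TPM for 54600 identifiers, and every column summed to the same total. The submitters' processing notes name the build mm10 and, without roles or versions, HISAT2, fastp, limma, DESeq2 and featureCounts. Names and coordinates came from GENCODE M21 on the same build and promoter sequences from RefSeq. Of 54323 Ensembl identifiers 51492 had a name.

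The filter kept genes that reached 1 TPM in 3 or more libraries. Values were put on the log2(TPM + 1) scale and fitted by label in limma 3.58.1 (R 4.3.3), allowing the variance to follow the mean, with no block, two-sided tests and Benjamini-Hochberg adjustment over 11440 genes and a threshold of 0.05. This scale understates changes of low genes. The limma step was tested on simulated data.

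All members are accounted for; of each further list up to 3 genes with the smallest p were named, and up to 2 abundant genes of each cell type list. Members and lists were chosen with earlier results of these data known. Genes outside this rule (Epcam, Ly6g, Tnf, paralogs and overlapping genes, and those of the closing section) were picked with their values in view. The hepatocyte list had 9 names, of which 8 matched. Other alternatives were pseudocounts, filters, scalings, no trend, the replicate block and leaving out each library.

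Deviations from label means of same-numbered libraries were correlated at 0.16, 0.41 and 0.38, so the numbers were treated as a possible pairing that rests on the data and not on the labels.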

Additional observations from a re-analysis of the deposited data

How the results depend on the processing

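No marker gene passed the threshold under any of the 16 alternatives run. With the replicate block, which treats same-numbered libraries as pairs, the count past the threshold was 0, the median difference was +0.16 and the smallest limma adjusted p was 0.724, and the block changed no call. Spp1 had a 95% interval of +0.32 to +0.84 under the block and Spi1 one of +0.17 to +0.92. The median over tested marker genes ran from -0.01 to +0.26 when single libraries were left out, and the resident, recruited and gap differences ran from -0.08 to +0.25, from +0.08 to +0.27 and from -0.02 to +0.16. A pseudocount of 0.1 moved the recruited difference to +0.45 and the gap shift to +0.32, since it gives more weight to genes below 1 TPM. The number of tested genes whose labels did not overlap went from 2 to 1 with a filter of 5 TPM and to 1 when the 20 most abundant genes and mitochondrial genes were taken out before TPM were rescaled, and ran from 3 to 10 when a library was left out, where fewer libraries overlap less often. Without WT replicate 1 it was 10, without KO replicate 2 it was 5, and leaving out WT replicate 3, KO replicate 1 or KO replicate 3 gave 4. The share of all tested genes is given only for the main setting (9.08%). These changed counts are therefore not read as a result about the marker genes.

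Signs turned for small differences. Median-ratio scaling, with or without the block, gave Clec4f -0.01, Timd4 -0.03, Cd68 -0.07 and Tyrobp -0.05, and quantile normalization gave Timd4 -0.05, Cd68 -0.09 and Tyrobp -0.04. Rescaling after removal of the most abundant genes gave Cd68 -0.03 and Tyrobp -0.01. Over single left-out libraries the differences ran from -0.02 to +0.20 for Clec4f, -0.03 to +0.25 for Vsig4, -0.11 to +0.18 for Timd4, -0.08 to +0.62 for Marco, -0.18 to +0.08 for Cd5l, -0.01 to +0.28 for C1qb, -0.03 to +0.26 for C1qc, -0.04 to +0.15 for Cd68, -0.03 to +0.28 for Csf1r, -0.06 to +0.65 for Clec7a, -0.03 to +0.31 for Aif1, -0.04 to +0.22 for Folr2, -0.19 to +0.19 for Tyrobp and -0.20 to +0.34 for Fcer1g. In 13 genes the sign turned without WT replicate 3. Read depth is unknown, so genes below 1 TPM carry no estimate of counting error.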

Other observations

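Il1b, the cytokine released by activated macrophages, was at 4.42, 4.40 and 0.835 TPM in the WT-labelled libraries and 2.29, 6.03 and 3.40 TPM in the KO-labelled ones. It thus shared the low value of WT-labelled library 3. Id3, a factor needed for Kupffer cell identity that other liver cells also express, did not follow the resident markers: it was at 26.1, 26.6 and 16.7 TPM against 15.1, 37.2 and 14.7 TPM, with its lowest values in KO-labelled libraries 3 and 1. Clec9a, a marker of conventional dendritic cells, was at 0.576, 1.40 and 0.841 TPM against 0.413, 0.440 and 0.311 TPM. Its labels did not overlap, at levels near or below 1 TPM, where it was not tested. It was the only 1 of 8 dendritic cell genes without overlap, beside 9.08% of all tested genes. The more abundant Zbtb46 overlapped, at 1.15, 1.88 and 1.03 TPM against 1.04, 1.76 and 1.38 TPM. The sums of the 8 genes also overlapped, at 3.15 to 6.14 TPM and 3.06 to 5.21 TPM.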
